A study of Homo sapiens with 12 samples.

Results

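Lines with and without the EZH2 Y646N mutation were compared in cells that lack KMT2D, as 3 libraries of a double mutant line (genotype kmt2d-/- + EZH2 Y646N) against 3 libraries of a KMT2D mutant line (genotype kmt2d-/-). Both are CRISPR derivatives of OCI-Ly7, a B cell line established from a pleural effusion of a human diffuse large B-cell lymphoma, and both carry the KMT2D lesion, so that only EZH2 differs by label. These are 6 of the 12 samples of the series. The wild-type line (3 libraries) and a line with EZH2 Y646N alone (2 libraries in the table, with replicate 3 not analysed here) stand beside them. All 4 lines were untreated and grown in the same medium. Whether a mutant line is 1 clone is not given in the sources used here, so clone and genotype cannot be told apart. RNA was counted per gene by MARS-seq, which sequences barcoded cDNA from the 3′ ends of transcripts. The table lists 28278 genes. Of these, 8813 passed a filter on low counts and were tested, 8433 of them off the long arm of chromosome 19 and 380 on it. The genes of that arm are described apart, because their counts are shifted as a block in the KMT2D mutant line.

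EZH2 is the catalytic subunit of Polycomb repressive complex 2 (PRC2), which methylates lysine 27 of histone H3 and thereby keeps genes repressed. Replacement of a tyrosine in its catalytic SET domain makes the enzyme better at adding the last methyl group, and the mutation recurs in lymphomas of germinal centre B cells. KMT2D methylates lysine 4 of histone H3 at enhancers, favours expression of the genes they control, and is often inactivated in the same lymphomas.

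The site of the mutation is shown because it is the only labelled difference between the 2 lines. It lies on the minus strand of chromosome 7 of GRCh38, at chr7:148811634-148811636, in exon 16 of the 751-codon EZH2 transcript ENST00000320356.6 of GENCODE 29. The line below is the reference sequence of that transcript in the coding direction, with the tyrosine codon that Y646N replaces by one for asparagine in capitals.
EZH2 around the mutated codon: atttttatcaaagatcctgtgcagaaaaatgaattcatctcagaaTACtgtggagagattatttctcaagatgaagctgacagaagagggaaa

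Total counts were 3107871, 1392983 and 2463619 for replicates 1 to 3 of the KMT2D mutant. For the double mutant they were 2165911, 1418465 and 1705894. Across the whole series the range was 1118710 to 3107871. Pearson correlations of log2 CPM were 0.970 to 0.983 among KMT2D mutant libraries, 0.969 to 0.972 among double mutant libraries and 0.902 to 0.920 between the lines. The labels do not tell whether replicates came from separate cultures, so p-values reflect no more than the variation among these samples, which may be technical. At an equal depth of 1392983 counts, 11679 to 11916 genes had a count in KMT2D mutant libraries and 10757 to 11000 in double mutant libraries. All 11 listed B cell markers had counts in both lines, with a summed level of 6040 to 7226 CPM against 7263 to 7853 CPM in the double mutant. Its largest part was CD79A, which lies on the shifted arm. Of 19 markers of T and NK cells, CD3D, CD2, CD8A and CD8B were at 0 in both lines and the summed level was 259 to 319 CPM against 179 to 204 CPM, most of it from LCK. Of 19 myeloid markers, LYZ, CSF1R and MPO were at 0 in both lines, and the sum, mostly AIF1, was 11.5 to 17.5 CPM against 4.93 to 6.46 CPM. The sums of 17 fibroblast and epithelial markers (1.44 to 5.79 CPM against 1.76 to 5.64 CPM) and of 12 erythroid and megakaryocyte markers (0.644 to 2.87 CPM against 0.462 to 2.11 CPM) overlapped between the lines. The part of these shifts in the results was not tested.

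The targeted genes were read in each library first. EZH2 stood at 64.6, 65.8 and 65.1 normalised CPM in the KMT2D mutant and at 91.3, 81.6 and 87.8 in the double mutant, so that the double mutant libraries were all higher. The difference was log2 0.42 (SE 0.15), with edgeR adjusted p = 0.03, and the call was lost without any 1 of KMT2D mutant replicates 1, 2 and 3 or double mutant replicates 1 and 3. It was also lost with upper-quartile factors (log2 0.27, edgeR adjusted p = 0.16), with DESeq2 (adjusted p = 0.074), with no filter or a filter at a mean of 10 CPM (edgeR adjusted p = 0.066 in both), and with the abundance trend removed (edgeR adjusted p = 0.20). KMT2D stood at 41.1, 40.9 and 34.5 normalised CPM and 65.6, 39.3 and 33.7, which overlap, and its difference was log2 0.27 (SE 0.27), with edgeR adjusted p = 0.44. Because only 3′ ends were counted, such levels are no check of either genotype label.

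The double mutant line differed from the KMT2D mutant line in a large part of the measured transcriptome. Off the long arm of chromosome 19, the quasi-likelihood test of edgeR, adjusted by Benjamini-Hochberg and read at 0.05, called 3443 of 8433 genes, 40.8% of those tested. They comprised 1639 genes higher (19.4%) and 1804 lower (21.4%) in the double mutant. Genes that changed by at least 2-fold were mostly lower, 1104 against 357 higher. The median log2 fold change of all 8433 genes was -0.04, and the libraries of the 2 lines did not overlap for 24.6% of genes on the higher side and 27.8% on the lower side. Genes called lower were concentrated at low abundance. With the genes in 3 abundance classes of 2811, the lowest class (0.859 to 14.1 normalised CPM) had 785 lower and 150 higher. The middle class had 612 lower and 463 higher, and the class from 55.8 CPM upward 407 lower and 1026 higher. The plot of change against mean level shows that slope.

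**Figure D1:**
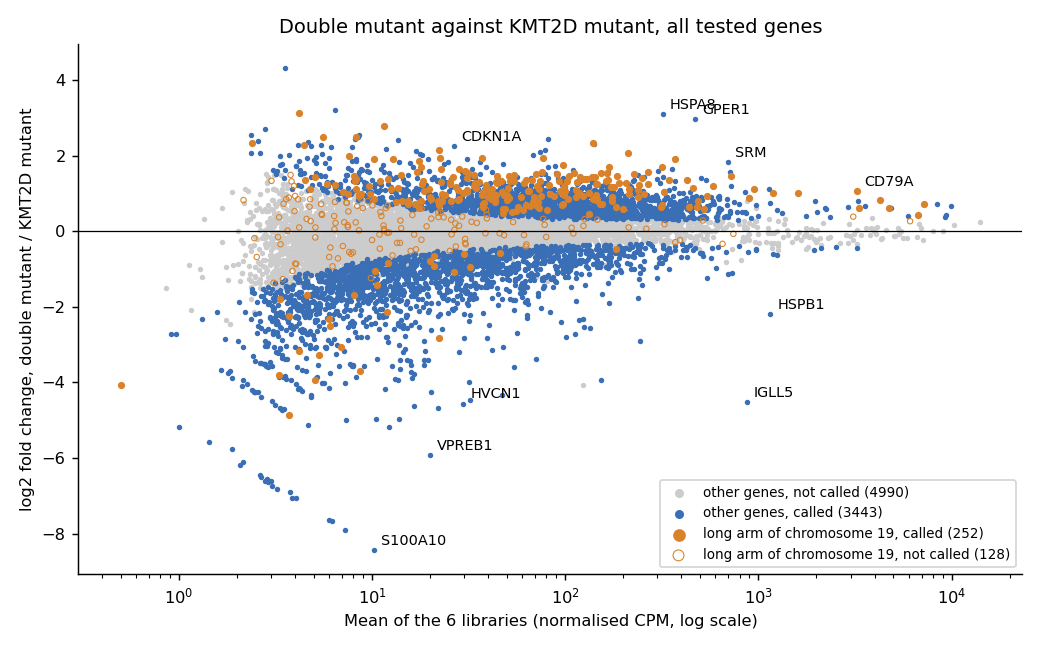
Log2 fold change of the double mutant against the KMT2D mutant (vertical axis) against the mean of the 6 libraries in normalised CPM (horizontal axis, log scale) for 8813 tested genes. Blue points are the 3443 genes called off the long arm of chromosome 19, grey points those not called, and orange points the 380 genes of that arm, most of which lie above 0. Fitted values of genes with few counts in 1 line, such as S100A10, depend on the prior count.

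The split between directions depended on the scaling. Upper-quartile factors shift the median of all genes by -0.15 and gave 1141 higher and 2261 lower, 33.5% higher in place of 47.6%. With the trend of each library with abundance removed, 454 genes were higher and 740 lower by at least 2-fold.

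The 14 deepest falls included IGLL5, HVCN1, APOBEC3C and PREX1. IGLL5, an immunoglobulin lambda-like gene on chromosome 22, stood at 1621, 1687 and 1695 normalised CPM in the KMT2D mutant libraries and at 63.7, 99.7 and 56.4 in the double mutant libraries. The difference was log2 -4.52 (SE 0.19), with edgeR adjusted p = 5.9e-12. Its counts are uncertain because it shares sequence with the immunoglobulin lambda constant genes. HVCN1, which encodes the voltage-gated proton channel that B cells use during antigen receptor signalling, fell from 53.6, 57.7 and 60.5 to 3.45, 1.51 and 1.74, at log2 -4.57 (SE 0.28). APOBEC3C, a cytidine deaminase whose counts are uncertain because of its paralogs, fell from 80.7, 87.9 and 99.6 to 4.44, 6.80 and 2.32, at log2 -4.34 (SE 0.24). The 14 deepest falls and 14 largest rises were picked among called genes without overlap between the lines. Separation of their libraries was thus set by that rule. PREX1, an activator of the small GTPase Rac, fell from 63.1, 50.3 and 65.9 to 1.97, 6.04 and 4.07, at log2 -3.98 (SE 0.27).

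Several genes were all but silent in the double mutant. S100A10, the calcium-independent S100 protein that binds annexin A2, had 0 counts in all double mutant libraries and 158 in the KMT2D mutant, 24.7, 17.5 and 19.5 normalised CPM. With 3 counts over the group in place of 0, it was at least 36.2-fold lower. VPREB1, which encodes a surrogate light chain component found in precursor B cells, had 3 counts against 299 and was 68.4-fold lower (95% interval 23.2 to 334). EVA1B had 3 counts against 169 (38.7-fold lower, 13 to 189), and SLC4A11, of the bicarbonate transporter family, 3 against 149 (34.1-fold lower, 11.4 to 167). Over the wild-type libraries S100A10 had 10 counts and EVA1B 34, and both had 0 in the EZH2 mutant. The wild-type means of VPREB1 and SLC4A11, given below, were likewise under those of the KMT2D mutant. The folds of these genes thus start from KMT2D mutant levels above those of wild type. Such intervals and floors cover counting error only.

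BIN1 and MFGE8 were among the other large falls. BIN1, which encodes a membrane-bending protein, stood at 34.1, 48.3 and 44.8 normalised CPM in the KMT2D mutant and at 0.987, 3.02 and 1.16 in the double mutant, at log2 -4.67 (SE 0.37). MFGE8, a secreted bridge between dying cells and phagocytes, went from 20.4, 41.6 and 32.9 to 0.987, 0.755 and 1.74, at log2 -4.63 (SE 0.41). The remaining genes among the 14 deepest falls were FNDC10 (log2 -4.96), PTPRVP (log2 -4.45), a phosphatase pseudogene whose counts are uncertain, TMEM54 (log2 -4.25) and SPATA20 (log2 -4.16). All 14 kept their call in each alternative that tested them.

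The largest rises were smaller in size than the largest falls. GPER1, a membrane receptor for estrogen, rose from 96.6, 123 and 104 normalised CPM in the KMT2D mutant to 928, 838 and 742 in the double mutant, at log2 2.96 (SE 0.14), with edgeR adjusted p = 1.1e-11. CDKN1A, which encodes the cell cycle inhibitor p21, rose from 8.22, 8.06 and 11.1 to 44.4, 49.1 and 39.5, at log2 2.26 (SE 0.21). The interferon-induced GTPase gene MX1 rose from 25.9, 32.9 and 25.7 to 107, 127 and 124, at log2 2.10 (SE 0.16). The 3 double mutant libraries of each of these genes lay at more than 3 times the highest KMT2D mutant library. HSPA8, the constitutive HSP70 chaperone, stood at 88.3, 41.6 and 66.6 and then 1023, 375 and 325, with double mutant replicate 1 well above the other two, at log2 3.1 (SE 0.60). Its counts are uncertain because of processed pseudogenes.

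Further rises included LRRC32, a docking receptor for latent TGF-beta, from 28.6, 32.2 and 25.7 normalised CPM to 138, 128 and 117, at log2 2.16 (SE 0.16). CEND1, a neuronal cell cycle exit factor, rose at log2 2.45, and the neuronal tubulin gene TUBB3 at log2 2.31. Of the other members of the 14 largest rises, the lysosomal channel gene MCOLN1 was at log2 2.43, the vesicle GTPase gene RAB3A at log2 2.14 and the sorting nexin gene SNX8 at log2 2.06. QTRT1, a subunit of the enzyme that puts queuine into tRNA, was at log2 2.03, the telomere helicase gene RTEL1 at log2 2.01, the mitochondrial GTPase gene MTG1 at log2 1.92 and the small nucleolar RNA host gene SNHG3 at log2 2.18. Levels of 12 of the described genes are plotted by library for all 4 lines.

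**Figure D2:**
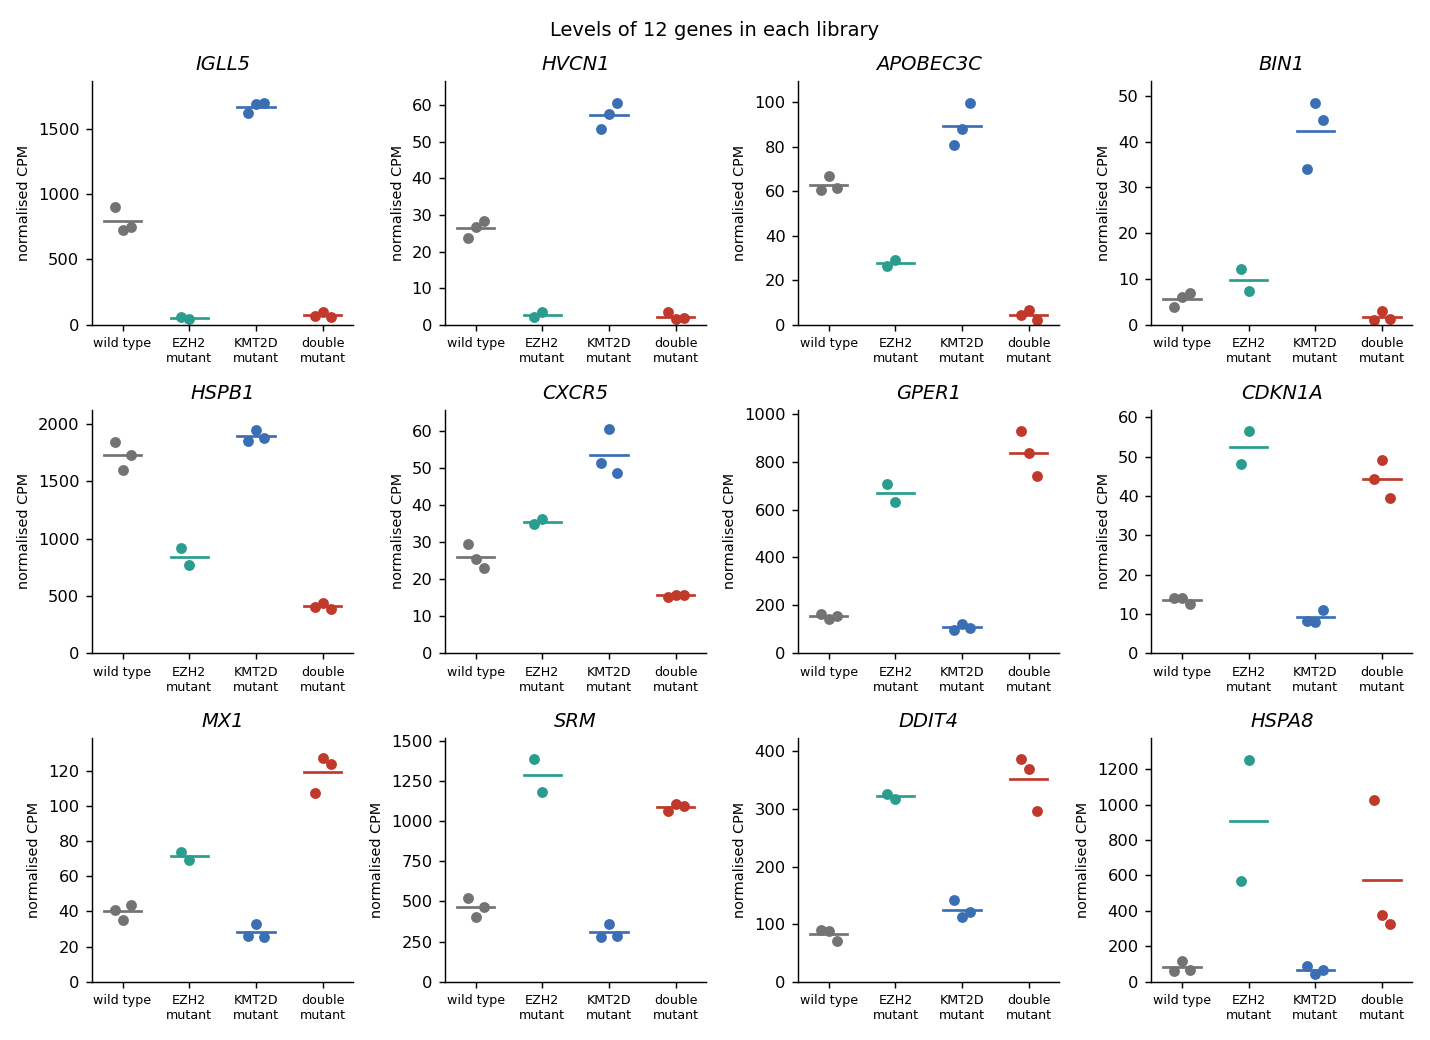
Normalised CPM (vertical axes, from 0) of 12 genes in each library of wild type, EZH2 mutant, KMT2D mutant and double mutant. Points are libraries and bars are means. For each gene the 3 double mutant libraries lie apart from the 3 KMT2D mutant libraries, lower for IGLL5, HVCN1, APOBEC3C, BIN1, HSPB1 and CXCR5 and higher for the other genes.

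Genes of the chromatin machinery moved in both directions. Of 13 tested PRC2 core and accessory genes, 3 rose, 2 fell and 8 did not pass, beside 19.4% and 21.4% over all genes. PHF19, which encodes a Polycomb-like subunit that helps PRC2 bind chromatin, rose from 246, 257 and 228 normalised CPM to 401, 404 and 382, at log2 0.70 (SE 0.11). RBBP4, a histone-binding subunit shared with other complexes, fell from 67.3, 68.5 and 65.9 to 34.5, 32.5 and 35.5, at log2 -0.97 (SE 0.16). The double mutant libraries stood wholly above the KMT2D mutant libraries for PHF19 and wholly below for RBBP4. EZH1, the other catalytic subunit, fell at log2 -0.59 (SE 0.15), and EPOP, an accessory subunit, rose at log2 0.57 (SE 0.18), a call lost with upper-quartile factors and without KMT2D mutant replicate 3, double mutant replicate 1 or double mutant replicate 2. The core subunit genes EED (log2 -0.24) and SUZ12 (log2 -0.45) did not pass. The rises came to 1 without KMT2D mutant replicate 3 or double mutant replicate 1 and with upper-quartile factors. The list median, -0.24, turned to 0.06 once the abundance trend was removed and to 0.16 once both GC and abundance trends were.

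Among 22 PRC1 genes, which encode the complex that binds and acts beside PRC2 marks, 4 rose and 4 fell, 18.2% each way, near the shares over all genes. CBX8, a reader of methylated lysine 27, stood at 1.83, 4.03 and 2.30 normalised CPM in the KMT2D mutant and at 14.8, 12.1 and 13.9 in the double mutant, at log2 2.44 (SE 0.38), and the reader gene CBX6 rose at log2 0.91. PCGF5, a RING-finger partner of variant PRC1, fell from 106, 118 and 117 to 35.5, 39.3 and 50.6, at log2 -1.44 (SE 0.19). The Polycomb gene PHC3 was lower at log2 -1.94 (SE 0.55), a call lost with the abundance trend removed (-1.19, edgeR adjusted p = 0.088) and with GC and abundance trends removed (-1.07, edgeR adjusted p = 0.11), and SCMH1 was higher at log2 0.81 (SE 0.15). The other called members were the falls of PHC1 (log2 -0.90, a call lost without KMT2D mutant replicate 1) and BCOR (log2 -0.93, lost without double mutant replicate 1 or 2), and the rise of L3MBTL2 (log2 0.82, lost without KMT2D mutant replicate 2 or double mutant replicate 1).

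On the side of lysine 4 methylation, 5 of 17 tested KMT2 family and COMPASS genes rose (29.4%) and 1 fell (5.88%), beside 19.4% and 21.4% over all genes. CXXC1 (log2 0.74), SETD1A (log2 0.70) and the common subunit WDR5 (log2 0.58) were higher, WDR82 (log2 0.43) and PAXIP1 (log2 0.56) also passed, and KMT2C, the closest relative of KMT2D, was lower at log2 -0.78 (SE 0.27). Of these 6 calls, those of CXXC1 and SETD1A held in each alternative. The rises came to 2 without KMT2D mutant replicate 1 and to 3 with upper-quartile factors and without KMT2D mutant replicate 3 or double mutant replicate 1. The fall of KMT2C was lost with DESeq2, with either trend correction and without KMT2D mutant replicates 1 or 2 or double mutant replicates 1 or 2. Of 16 histone demethylase genes, 3 rose (18.8%) and 0 fell, and 2 rose with either trend correction. KDM6B, which removes methyl groups from lysine 27, stood at 74.3, 75.9 and 69.3 normalised CPM and 133, 122 and 94.1, at log2 0.67 (SE 0.16), a call lost with both trends removed (edgeR adjusted p = 0.072). KDM5C (log2 0.74) and KDM4B (log2 0.53) were the others. The call of KDM4B was lost with the abundance trend removed (log2 0.30, edgeR adjusted p = 0.085) and with both trends removed (log2 0.19, edgeR adjusted p = 0.24). Of 25 acetyltransferase, deacetylase and corepressor genes, 5 rose and 4 fell, near the shares over all genes, with 3 rises without KMT2D mutant replicate 3, with upper-quartile factors and with either trend correction, and 2 falls without any 1 of the other 5 libraries. The acetyltransferase gene EP300 fell from 51.8, 61.1 and 55.9 to 26.2, 29.5 and 45.3, at log2 -0.73 (SE 0.19).

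Of 16 tested histone genes 1 rose (6.25%) and 3 fell (18.8%), beside 19.4% and 21.4% over all genes. H2AX, whose product is phosphorylated at DNA breaks, rose from 214, 185 and 185 normalised CPM to 394, 365 and 342, at log2 0.91 (SE 0.13). The linker histone gene H1-10 fell at log2 -0.69, and H2BC12 at log2 -0.93. The third fall was H1-2, at log2 -1.95 (SE 0.50).

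Genes reported elsewhere to respond to these 2 enzymes were read next. Of 11 tested PRC2 targets 2 rose (18.2%) and 3 fell (27.3%), beside 19.4% and 21.4% over all genes. The rises were CDKN1A, described above, and CIITA, the class II transactivator (log2 0.71). The falls, CDKN1B (log2 -0.46), IRF4 (log2 -0.34) and TNFRSF21 (log2 -0.66), were all lost when KMT2D mutant replicate 1 or 3, or double mutant replicate 2, was left out, and 1 fall was left with both trends removed. The rises came to 1 without KMT2D mutant replicate 1. Another 12 genes of that list were at 0 in every library. Of 12 reported KMT2D targets, 0 rose and 4 fell (33.3%): the antiproliferative gene BTG2 (log2 -0.83), the costimulatory receptor gene CD40 (log2 -0.58), JAK1 (log2 -1.76) and IRF4.

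Of 28 tested germinal centre genes, 16 fell, 1 rose and 11 did not pass, which is 57.1% lower beside 21.4% over all genes, and the list median was -0.50 beside -0.04. CXCR5, the receptor that guides B cells into follicles, stood at 51.5, 60.4 and 48.6 normalised CPM in the KMT2D mutant and at 15.3, 15.9 and 15.7 in the double mutant, at log2 -1.76 (SE 0.19). CD83, a marker of light-zone B cells, fell from 46.3, 51.7 and 48.2 to 14.8, 14.4 and 16.9, at log2 -1.66 (SE 0.19). No double mutant library reached a KMT2D mutant library for either gene. GCSAM, a regulator of B cell motility, had the deepest fall of the list members described, at log2 -2.85 (SE 0.46), on low levels of 13.7, 6.04 and 13.8 against 1.97, 1.51 and 1.16. BCL6, the transcriptional repressor on which germinal centres depend, fell from 99.6, 93.3 and 80.8 to 62.7, 55.9 and 64.5, at log2 -0.58 (SE 0.15).

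B cell transcription factor genes off the arm fell in 10 of 23 cases (43.5%, beside 21.4% over all genes) and rose in 1. LEF1, a factor of the WNT pathway active in early B cells, went from 281, 217 and 243 normalised CPM to 120.4, 111 and 120.3, at log2 -1.08 (SE 0.15). POU2AF1, a coactivator of octamer-binding factors, went from 405, 389 and 441 to 244, 249 and 252, at log2 -0.73 (SE 0.12), and ETS1 fell at log2 -0.95. All 3 were lower in every double mutant library. The rise was BCL11A, at 8.83, 12.1 and 6.13 and then 14.3, 34.7 and 30.8, log2 1.58 (SE 0.36). Of 14 tested genes of the plasma cell program, 3 rose (21.4%, beside 19.4% over all genes), among them the translocon gene SSR4 (log2 1.21) and FKBP11 (log2 0.81), and 5 fell (35.7%, beside 21.4%), among them DERL3 (log2 -0.93), CD38 (log2 -0.59) and PIM2 (log2 -0.89). The falls of that list came to 3 without KMT2D mutant replicate 1 or 3 or double mutant replicate 1 or 2.

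Genes of germinal centre confinement and of homing, taken as 1 list, fell in 7 of 18 tested cases (38.9%, beside 21.4% over all genes) and rose in 1. CXCR4, the dark-zone chemokine receptor, stood at 438, 329 and 402 normalised CPM and then 208, 179.8 and 218, at log2 -0.95 (SE 0.20). S1PR4, a receptor for sphingosine 1-phosphate, fell from 221, 247 and 192 to 125, 110.3 and 98.8, at log2 -0.98 (SE 0.14). The double mutant levels of both were below all KMT2D mutant levels. ITGB2, the common subunit of the leukocyte integrins, fell from 26.5, 30.9 and 31.4 to 2.47, 3.02 and 1.16, at log2 -3.72 (SE 0.34), and RGS2, a brake on G protein signalling, fell at log2 -1.08. The rise was ITGB7, the partner of the gut-homing integrin (log2 0.61), a call lost with both trends removed.

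The wider list of actin, integrin and adhesion genes had 14 falls (40.0%) and 5 rises (14.3%) in 35 tested members, beside 21.4% and 19.4% over all genes. It had 2 rises without KMT2D mutant replicate 3, and 3 without double mutant replicate 1 or with either trend correction. RHOH, a GTPase of blood cells, fell from 246, 248 and 231 normalised CPM to 105, 89.9 and 85.4, at log2 -1.36 (SE 0.13). The tetraspanin gene CD82 was at 10.4, 8.06 and 6.89 and then 0.987, 0 and 1.16, at log2 -3.35 (SE 0.55), and the actin crosslinker gene FLNA went the other way, at log2 1.05. Among annexins and S100 genes, ANXA2, the partner of S100A10, stood at 14, 12.1 and 17.2 and then 0.493, 2.27 and 1.16, at log2 -3.56 (SE 0.44). S100A4 fell at log2 -2.47 (SE 0.58), while ANXA6 rose at log2 0.73. S100PBP, a list member that encodes a binder of an S100 protein and is itself neither annexin nor S100 gene, fell at log2 -0.92. Its call was lost without several single libraries, with DESeq2 and with either trend correction. With S100PBP counted, 1 of the 9 tested list members rose (11.1%) and 4 fell (44.4%).

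In the light chain list, IGLL5 and VPREB1 fell, and VPREB3, which assists light chain assembly, rose from 1045, 1161 and 1112 normalised CPM to 1571, 1643 and 1469.7, at log2 0.50 (SE 0.13), a call lost with both trends removed. In the TCL1 family list, the AKT coactivator gene TCL1A fell from 3774, 3893 and 3514 to 2817, 2872 and 2589.6, at log2 -0.43 (SE 0.11). TCL1B rose at log2 0.50, a call lost without KMT2D mutant replicate 3 and with either trend correction. TCL6, which is annotated as a processed transcript and not as protein-coding, fell at log2 -2.34 (SE 0.48).

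Signalling lists held changes both ways. Of 30 tested genes of B cell receptor signalling, 7 rose and 7 fell, near the share of all genes. The falls came to 3 without KMT2D mutant replicate 3 or double mutant replicate 2, to 12 with upper-quartile factors and to 11 with both trends removed, and the rises to 4 with either trend correction. The phosphatase gene PTPN6, an inhibitor of the receptor, rose from 89.9, 98.0 and 95.4 normalised CPM to 157, 162 and 146, at log2 0.72 (SE 0.13). The adaptor gene LAT2 fell from 116, 128 and 113 to 51.8, 45.3 and 51.7, at log2 -1.25 (SE 0.15). Of 24 tested genes that answer CD40 and NF-kB, 6 rose (25%) and 7 fell (29.2%), beside 19.4% and 21.4% over all genes. LTB, a lymphotoxin subunit on the B cell surface, stood at 382, 365 and 358 and then 118, 116 and 90.7, at log2 -1.76 (SE 0.13), and its partner LTA fell at log2 -1.62. NFKB2 (log2 0.78) and the inhibitor gene NFKBIE (log2 0.84) rose. With the abundance trend removed this list had 3 rises and 3 falls, with both trends removed 3 and 4, and it had 4 falls without KMT2D mutant replicate 1 or 3 or double mutant replicate 1.

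Of 9 tested Fc receptor and Fc receptor-like genes, 3 rose (33.3%) and 4 fell (44.4%), beside 19.4% and 21.4% over all genes. FCMR, the receptor for IgM, fell from 23.5, 30.9 and 25.7 normalised CPM to 2.96, 3.02 and 2.91, at log2 -3.13 (SE 0.31). FCER2, the low-affinity IgE receptor CD23, rose from 8.53, 9.40 and 9.96 to 24.2, 28.7 and 21.5, at log2 1.41 (SE 0.26), and FCGR2B, the inhibitory IgG receptor, stood at 2.44, 0 and 2.30 and then 9.38, 10.6 and 8.14, at log2 2.28 (SE 0.44). The groups did not overlap for any of the 3. FCRL5 fell at log2 -0.68, and FCRL1 fell at log2 -1.0 and FCRL2 at log2 -0.79, calls lost without KMT2D mutant replicate 3 or double mutant replicates 1 or 2 and with either trend correction, which left 2 falls. The call of FCRL2 was also lost with DESeq2 and without KMT2D mutant replicate 1. FCRLA, at 1084, 1173 and 1018 and 1055, 1116 and 1300.0, did not pass, with a difference of log2 0.08 (SE 0.12).

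Of 17 MHC class II presentation genes, 5 rose (29.4%) and 4 fell (23.5%), beside 19.4% and 21.4% over all genes, with 3 rises without KMT2D mutant replicate 1 or 3 or double mutant replicate 1 or 2 and with upper-quartile factors. They came to 2 with the abundance trend removed. IFI30, a lysosomal reductase that prepares antigens, rose from 354, 405 and 324 normalised CPM to 1043, 1143 and 1007, at log2 1.56 (SE 0.13). HLA-DOB, which restrains peptide loading, fell from 134, 129.6 and 159 to 67.6, 76.3 and 76.1, at log2 -0.95 (SE 0.15), and the cathepsin gene CTSH fell at log2 -1.72. HLA-DPA1, a class II chain, rose at log2 0.41, a call lost with the abundance trend removed, and HLA-DMB fell at log2 -0.56. Of 20 class I presentation genes, 4 rose (20.0%) and 6 fell (30%), with 2 rises without any of those 4 libraries in turn, with upper-quartile factors and with either trend correction. NLRC5, the transactivator of class I genes, fell from 258, 279 and 272 to 159, 150.3 and 141, at log2 -0.84 (SE 0.12), HLA-E fell at log2 -1.12, HLA-F at log2 -0.62 and HLA-B at log2 -0.43. PSME2, a subunit of the proteasome activator PA28, rose from 113, 136 and 133 to 313, 355 and 318, at log2 1.37 (SE 0.12). HLA genes share sequence with each other, so their counts are uncertain.

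Interferon response genes rose in 7 of 27 cases (25.9%) and fell in 5 (18.5%), beside 19.4% and 21.4% over all genes. Beside MX1, the ubiquitin-like modifier gene ISG15 rose from 196, 210.1 and 191 normalised CPM to 428, 399.5 and 337, at log2 0.96 (SE 0.13), and the tetherin gene BST2 rose at log2 0.78. IFITM2, a membrane protein that blocks viral entry, fell from 151, 175 and 153 to 31.6, 34.7 and 23.8, at log2 -2.41 (SE 0.16), though its paralogs make the counts uncertain. IFI16, a sensor of DNA, stood at 149.9, 128 and 144 and then 40.0, 60.4 and 107, at log2 -1.03 (SE 0.25). The rises came to 4 without KMT2D mutant replicate 1, and the falls to 3 without that library or double mutant replicate 1, while upper-quartile factors gave 8 falls. Of 13 costimulatory genes 4 fell (30.8%) and 1 rose, the rise being lost with upper-quartile factors, with the abundance trend removed and without KMT2D mutant replicate 1 or 3 or double mutant replicate 2. SLAMF6 fell at log2 -0.77, and LGALS9, which encodes galectin-9, had 3 counts against 84 and was 19.2-fold lower (95% interval 6.36 to 95.1).

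Few markers of other blood cells could be tested. Of 3 tested T and NK cell markers, 2 fell (66.7%, beside 21.4% over all genes) and LCK did not pass. The 1 tested myeloid marker also fell. The called markers had low counts, and the lowest abundance class of all genes had 785 lower and 150 higher. PRF1, which encodes perforin, was 18.2-fold lower on 2 counts against 53 (95% interval 4.80 to 154). The interleukin 7 receptor gene IL7R stood at 20.1, 24.8 and 23 normalised CPM and then 5.43, 1.51 and 3.49, at log2 -2.58 (SE 0.44). AIF1, a gene of myeloid cells, stood at 10.4, 9.40 and 14.9 and then 2.96, 3.78 and 2.91, at log2 -1.87 (SE 0.37). The T cell genes CD3D, CD2 and CD8A and the myeloid genes LYZ and CSF1R were at 0 in all 6 libraries.

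The list of MYC targets and ribosome biogenesis had the largest share of rises. Of 38 tested members off the arm, 26 rose, 0 fell (1 in some alternatives) and 12 did not pass, which is 68.4% higher beside 19.4% over all genes, and the list median was 0.78. SRM, which makes the polyamine spermidine, stood at 276, 362 and 285 normalised CPM without and at 1064, 1107 and 1098 with the EZH2 mutation, at log2 1.83 (SE 0.14). NME1, a nucleoside diphosphate kinase, rose from 149, 154 and 147 to 476, 469.8 and 411, at log2 1.59 (SE 0.13), and BOP1, which processes ribosomal RNA, rose from 71.6, 104 and 81.9 to 254, 247 and 232, at log2 1.53 (SE 0.16). Each of the 3 genes had all double mutant libraries above all KMT2D mutant libraries. ODC1, the first enzyme of polyamine synthesis, rose at log2 1.34, MYBBP1A at log2 1.27 and NOP14 at log2 1.21. The count of rises was 23 to 27 over all alternatives.

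The 66 tested cytosolic ribosomal protein genes off the arm mostly did not pass. Of these, 7 rose (10.6%), 3 fell (4.55%) and 56 did not pass, with a median of -0.07. Over all genes 19.4% rose and 21.4% fell. Without KMT2D mutant replicates 2 or 3 there were 4 rises, without double mutant replicate 1 there were 3, and without KMT2D mutant replicate 2 or double mutant replicates 1 or 3 there were 5 falls. Upper-quartile factors turned the split to 3 higher and 12 lower, removal of the abundance trend to 6 and 11, and removal of both trends to 7 and 8. RPS2 rose at log2 0.68, and RPL15 and RPL37 fell at log2 -1.12 and -0.88. Such genes have many pseudogenes, and their counts are uncertain.

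Of 60 nuclear oxidative phosphorylation genes, 26 rose (43.3%, beside 19.4% over all genes), 3 fell and 31 did not pass, with a median of 0.36. The rises came to 14 once the abundance trend was removed and to 17 once both trends were, with medians of 0.10 and 0.17. ATP5MC1, a ring subunit of ATP synthase, stood at 135, 187 and 201 normalised CPM and then 567, 557 and 504, at log2 1.65 (SE 0.14), and the complex I genes NDUFS6 and NDUFS7 rose at log2 0.92 and 1.02. Of 27 heat shock chaperone genes, 15 rose (55.6%) and 2 fell, with 1 fall when any 1 of the 6 libraries other than double mutant replicate 3 was left out. AHSA1, a cochaperone of HSP90, rose from 189, 182 and 169.6 to 491, 426 and 406, at log2 1.29 (SE 0.12), and the chaperonin genes CCT3 and CCT7 rose at log2 0.90 and 0.94. The small heat shock gene HSPB1 went the other way, from 1847, 1946 and 1879 to 408, 441 and 387, at log2 -2.20 (SE 0.12).

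Of 26 genes of folding in the endoplasmic reticulum, 13 rose (50.0%, beside 19.4% over all genes) and 3 fell, with 1 fall without KMT2D mutant replicate 1 or double mutant replicate 2. CALR, the chaperone calreticulin, rose from 649, 776 and 721 normalised CPM to 1586, 1714 and 1382, at log2 1.13 (SE 0.14), and the disulfide isomerase gene PDIA4 rose at log2 0.99. EDEM1, which sends misfolded glycoproteins to degradation, fell from 425, 317 and 352 to 156, 144 and 113, at log2 -1.41 (SE 0.16). In glycolysis and hypoxia, 12 of 30 genes rose (40.0%), 5 fell (16.7%) and 13 did not pass, with 3 falls without KMT2D mutant replicate 1 or 3. PFKFB4, which sets the level of a glycolytic activator, stood at 52.7, 63.8 and 46.0 and then 169, 171 and 152, at log2 1.61 (SE 0.16), and GAPDH rose at log2 0.72. HK1, the housekeeping hexokinase, fell from 46.9, 65.1 and 62.4 to 16.8, 22.7 and 23.2, at log2 -1.47 (SE 0.21). These 2 lists thus held members that moved against their larger count.

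Of 31 genes of cholesterol and fatty acid synthesis, 11 fell (35.5%, beside 21.4% over all genes), 2 rose and 18 did not pass, with a median of -0.36. INSIG1, the sterol-responsive brake on SREBP, stood at 102, 71.8 and 83.5 normalised CPM and then 24.2, 21.9 and 27.3, at log2 -1.82 (SE 0.22). ACSS2, the acetate-activating synthetase, stood at 9.75, 12.1 and 13.4 and then 0.493, 2.27 and 1.74, at log2 -3.01 (SE 0.48). FDFT1, the first enzyme committed to sterols, stood at 478, 453 and 447 and then 191, 207 and 299, at log2 -0.98 (SE 0.17). The double mutant libraries were below the KMT2D mutant libraries throughout. Of 30 ATF4 targets and aminoacyl-tRNA synthetases, 11 fell (36.7%) and 3 rose, among them the folate enzyme gene MTHFD2 (log2 -1.23) and the stress factor gene DDIT3 (log2 -0.74) as falls and the valyl-tRNA synthetase gene VARS1 (log2 1.57) as a rise. With both trends removed the falls came to 17 in the sterol list and 19 in the ATF4 list.

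Of 40 tested S phase genes, 14 rose (35.0%, beside 19.4% over all genes) and 3 fell (7.5%, beside 21.4%), with FEN1, a flap endonuclease, from 164, 153 and 140.2 normalised CPM to 286, 252 and 255, at log2 0.79 (SE 0.13), and the helicase subunit genes MCM4 and MCM7 at log2 0.74 and 0.52. Without KMT2D mutant replicate 1 or replicate 3, 9 rose, and the falls came to 1 without KMT2D mutant replicate 3 or double mutant replicate 1 or 2. With the abundance trend removed 9 rose and 6 fell (median 0.11), with both trends removed 9 rose and 4 fell, and with upper-quartile factors or the 6 libraries alone 5 fell. In the G2 and M phase list of 53, 15 fell (28.3%, beside 21.4% over all genes), 4 rose and 34 did not pass. CDK1, the mitotic kinase, stood at 127, 136 and 155 and then 59.2, 54.4 and 90.1, at log2 -1.03 (SE 0.21), the spindle motor gene KIF11 fell at log2 -1.16 and the checkpoint gene BUB3 at log2 -0.92. The 4 rises came to 0 with upper-quartile factors, with either trend correction, and without KMT2D mutant replicate 3 or double mutant replicate 1, and to 2 without KMT2D mutant replicate 1 or double mutant replicate 2.

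Among 6 CDK inhibitor genes CDKN1A rose, CDKN1B and CDKN3 fell with calls lost without KMT2D mutant replicate 1 or 3 or double mutant replicate 3 (that of CDKN1B also with DESeq2, no filter or both trends removed), and CDKN2A, at 448, 452 and 482 normalised CPM and 491, 538 and 504, did not pass (log2 0.15, SE 0.12). Of 12 BCL2 family genes off the arm, 3 rose (25%) and 2 fell (16.7%), beside 19.4% and 21.4% over all genes, with 1 fall without KMT2D mutant replicate 1 or double mutant replicate 1 or 2. BAK1 (log2 0.76) and BAD (log2 0.66, a call lost with both trends removed) rose, and PMAIP1, which encodes the death-promoting protein NOXA, fell from 19.5, 13.4 and 19.9 to 4.93, 6.04 and 6.39, at log2 -1.64 (SE 0.37). MCL1 did not pass, at log2 -0.14 (SE 0.17). Of 17 growth brakes and feedback genes 6 fell (35.3%) and 2 rose. DDIT4, which dampens mTOR activity under stress, stood at 143, 112 and 121 and then 387, 370.1 and 297, at log2 1.48 (SE 0.14). TXNIP, an inhibitor of glucose uptake, stood at 114, 125 and 132 and then 45.4, 55.9 and 76.1, at log2 -1.06 (SE 0.23), and the forkhead factor gene FOXO1 fell at log2 -0.53.

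**Figure D3:**
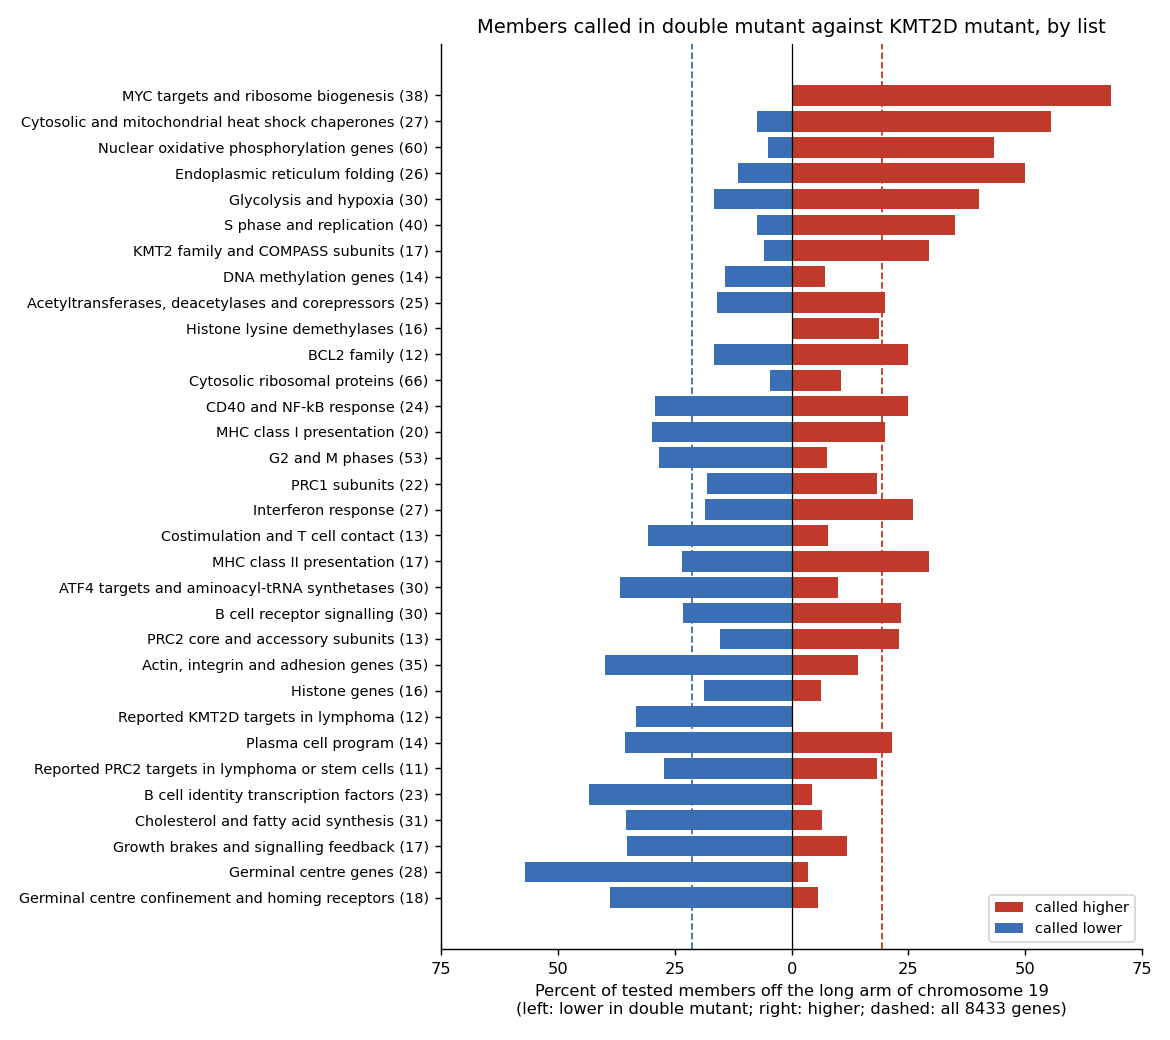
Percent of the tested members of each list that were called higher (right, red) or lower (left, blue) in the double mutant against the KMT2D mutant, for lists with 10 or more tested genes off the long arm of chromosome 19, with the number of genes in brackets. Dashed lines are the shares over all 8433 genes, 19.4% and 21.4%. The list of MYC targets and ribosome biogenesis lies highest at 68.4% and germinal centre genes have the largest lower share, 57.1%.

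On the long arm of chromosome 19, 252 of 380 tested genes passed the test (66.3%), 225 higher (59.2%) and 27 lower (7.11%) in the double mutant. In order from the centromere, the first 75 tested genes, POP4 to ZNF607, had a median log2 fold change of -0.05, with 12 higher and 12 lower. The following 305 genes, SIPA1L3 to CENPBD1P1, had a median of 0.94, a ratio of 1.91, and 88.2% of them lay above 0, with 213 called higher and 15 lower. The medians of the other chromosomes, with the rest of chromosome 19 taken alone, ran from -0.34 on chromosome 13 to 0.25 on that rest.

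The 305 genes stood low in the KMT2D mutant and near the wild-type level in the double mutant. Set against the average wild-type level, their median log2 level was -0.78, -0.68 and -0.79 in the 3 KMT2D mutant libraries and 0.16, 0.22 and 0.04 in the 3 double mutant libraries. The comparisons share these libraries, and the step is present in each library of the KMT2D mutant and in none of the double mutant. Between EZH2 mutant and wild type the median of the same genes was 0.16. A gene of this stretch that is higher in the double mutant can therefore not be told apart from the shift of the block.

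**Figure D4:**
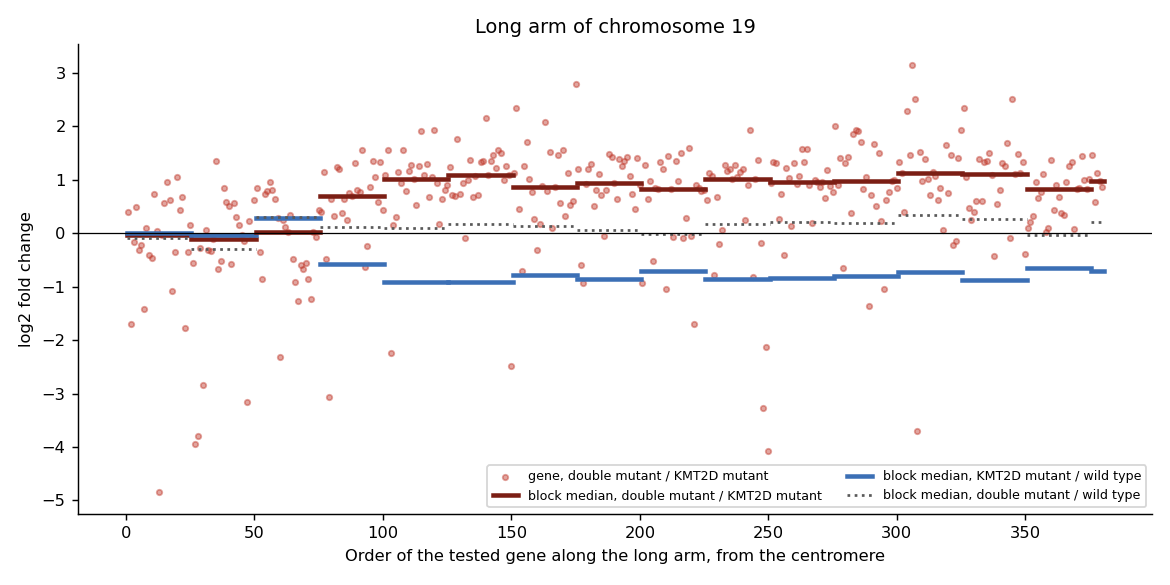
Log2 fold change (vertical axis) of the 380 tested genes of the long arm of chromosome 19 in their order from the centromere (horizontal axis). Points are genes in the double mutant against the KMT2D mutant, and bars are medians of blocks of 25 genes (5 in the last) for 3 comparisons. From the fourth block on, the medians of double mutant against KMT2D mutant lie between 0.69 and 1.13 and those of KMT2D mutant against wild type between -0.92 and -0.58.

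Several genes of B cell function lie in the shifted stretch. CD79A, a signalling chain of the B cell receptor, stood at 1991, 2347 and 1941 normalised CPM with KMT2D lost alone and at 4259.7, 4571 and 4313 with both lesions, beside a wild-type mean of 4029. Its rise was log2 1.07 (SE 0.16). POU2F2, which encodes the octamer-binding factor OCT2, rose at log2 1.35, SPIB, an ETS factor of B cells, at log2 1.43 and the death-promoting gene BAX at log2 1.21. Of 8 tested ribosomal protein genes of the arm, 6 rose, beside 213 of all 305 genes of the shifted stretch. RPS19 (log2 1.37) was 1 of the 6. The replication genes POLD1 and LIG1 rose at log2 1.32 and 0.97, and the stress factor gene ATF5 at log2 0.88.

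The largest rises of the arm exceeded the block median of 0.94. CD3EAP, a subunit of RNA polymerase I, stood at 2.74, 2.69 and 3.06 normalised CPM and then 19.2, 22.7 and 18.6, at log2 2.79 (SE 0.30). HSPBP1, a cochaperone of HSP70, rose from 36.6, 49.7 and 51.7 to 235, 254 and 206, at log2 2.35 (SE 0.18), the mitochondrial import channel gene TOMM40 at log2 2.08 and the cation channel gene TRPM4 at log2 1.94. LSR, a lipoprotein receptor, fell from 38.4, 40.9 and 36.8 to 4.93, 7.55 and 4.07, at log2 -2.83 (SE 0.29). CCDC155 fell at log2 -2.12, DPY19L3 at log2 -1.41, LSM14A, an RNA-binding protein of processing bodies, at log2 -1.08 and the zinc finger gene ZNF83 at log2 -1.04. LSR, DPY19L3 and LSM14A lie among the first 75 genes, outside the shifted stretch (median -0.05). CCDC155 and ZNF83 lie within that stretch. The calls of LSM14A and ZNF83 were lost without KMT2D mutant replicate 3, among others.

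The same mutation can be read in cells with KMT2D, in EZH2 mutant against wild type, which shares no library with the main comparison. Off the long arm of chromosome 19, 2723 of 8433 genes passed there (32.3%), 1440 higher (17.1%) and 1283 lower (15.2%). On the arm 123 of 380 passed (32.4%), 71 higher (18.7%) and 52 lower (13.7%). Of the 1639 genes higher in the double mutant, 1016 were also called higher with KMT2D present, 62.0% of the first list and 70.6% of the second, and 10 were called lower. Of the 1804 lower genes, 806 were also called lower (44.7% and 62.8%), and 20 were called higher. The sign was the same for 94.3% of the higher and 91.6% of the lower genes. Over the 8433 genes the 2 log2 fold changes had a Pearson r of 0.65 and a Spearman rho of 0.71, across genes, which are not independent replicates.

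Values without and with KMT2D stand side by side as follows. IGLL5 was at log2 -4.52 without KMT2D and -3.96 with it, HVCN1 at -4.57 and -3.12, CDKN1A at 2.26 and 1.96, and SRM at 1.83 and 1.47. None of these 4 passed the test of the difference between the settings. The list of MYC targets and ribosome biogenesis had medians of 0.78 and 1.13, heat shock chaperones 0.62 and 0.70, and germinal centre genes -0.50 and -0.53. The G2 and M phase list had 15 falls and a median of -0.15 without KMT2D, and 30 falls and a median of -0.59 with it. S phase genes had 14 rises, 3 falls and a median of 0.29 without KMT2D, and 5 rises, 4 falls and a median of 0.04 with it.

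The difference itself was tested as the interaction of the mutations. It passed for 187 of 8433 genes off the arm (2.22%), with 131 lower (1.55%) and 56 higher (0.664%) in cells without KMT2D, and for 79 of 380 on the arm (20.8%), 76 of them higher (20.0%) and 3 lower (0.789%). Of the 131, 68 were called only in the double mutant comparison, 26 only in EZH2 mutant against wild type, 17 in both in the same direction and 20 in both in opposite directions. Over all 266 genes the count depended on single libraries. It fell to 147 on leaving out EZH2 mutant replicate 2, and to 153 or 159 on leaving out KMT2D mutant replicate 1 or 3.

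**Figure D5:**
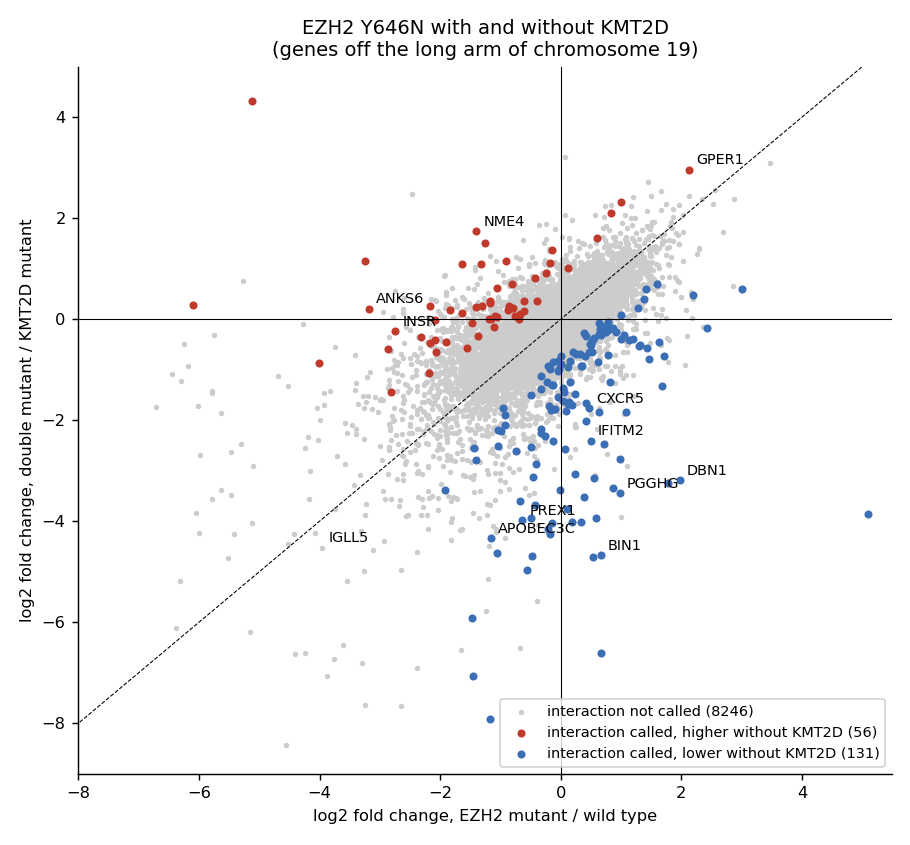
Log2 fold change of the double mutant against the KMT2D mutant (vertical axis) against that of the EZH2 mutant against wild type (horizontal axis) for the 8433 genes off the long arm of chromosome 19, with equality as a dashed line. Red and blue points are the 56 and 131 genes whose difference passed the interaction test, and grey points the others. Most genes lie in the quadrants of equal sign, and blue points such as BIN1 and DBN1 lie below the line. Extreme values rest on few counts in 1 line and depend on the prior count.

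The 5 genes with the most negative difference fell without KMT2D and did not pass as lower with it. The mean of BIN1 was 5.66 normalised CPM for wild type, 9.87 for the EZH2 mutant, 42.4 for the KMT2D mutant and 1.72 for the double mutant. The interaction was log2 -5.34, with edgeR adjusted p = 1.5e-05. DBN1, which encodes the actin-binding protein drebrin, rose from 8.77 to 33.5 with KMT2D present and fell from 26.0 to 2.91 without it, an interaction of log2 -5.16, with edgeR adjusted p = 1.1e-06. PGGHG, a glucosidase of collagen sugars, likewise rose at log2 0.98 and fell at log2 -3.44, an interaction of log2 -4.42. The KMT2D mutant mean was above the wild-type mean for all 3 genes.

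VPREB1 had means of 5.73 (wild type), 2.02 (EZH2 mutant), 39.1 (KMT2D mutant) and 0.668 normalised CPM (double mutant). SLC4A11 had a mean of 11.3 and 7.84 with KMT2D, and of 20.5 and 0.552 without it. The interaction passed for both, and for VPREB1 the call was lost without EZH2 mutant replicate 2 (log2 -4.48, edgeR adjusted p = 0.17). Among the genes described above, APOBEC3C (log2 -3.18), PREX1 (log2 -3.33), IFITM2 (log2 -2.91), FCMR (log2 -2.66, lost without EZH2 mutant replicate 2), CXCR5 (log2 -2.23), LAT2 (log2 -2.07) and HK1 (log2 -1.71) also had a negative interaction.

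The 5 genes with the most positive difference fell in the EZH2 mutant. NME4, a mitochondrial nucleoside diphosphate kinase, stood at 38.7, 49.0 and 36.4 normalised CPM in KMT2D mutant libraries and at 128, 143 and 139 in double mutant libraries, at log2 1.74 (SE 0.17), and fell at log2 -1.40 in the EZH2 mutant. AQP3, a channel for water and glycerol, rose at log2 1.1 and fell at log2 -1.64. INSR, the insulin receptor gene, fell at log2 -2.74 with KMT2D and was at log2 -0.23 without it, which did not pass. ANKS6, an ankyrin repeat gene, fell at log2 -3.19 and was at log2 0.20, which did not pass. FAM167A-AS1, an antisense gene whose counts are uncertain, fell at log2 -4.01 and was at log2 -0.87 (not passed). The interaction was between log2 2.51 and 3.39 for these 5 genes, and the call of FAM167A-AS1 was lost without EZH2 mutant replicate 2. PCGF5 fell in both settings, at log2 -1.44 and -2.81, with an interaction of log2 1.37 that was 0.70 and not called without EZH2 mutant replicate 2. That call was also lost with both trends removed and without any 1 of wild type replicate 3, KMT2D mutant replicates 1 and 3 and double mutant replicates 2 and 3, at log2 1.22 to 1.40.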

How the data were processed

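The deposited counts per gene, named as corrected by the submitters, come from MARS-seq libraries of 4 lines and were used as given. What the correction was is not examined here. Per the submitters' processing notes the tools included Trim Galore 0.6.0, cutadapt 1.15, FastQC, STAR 2.7.0f and DESeq2. The genome build and the counting program are not given in the sources used here. No column went unmapped to a line, and 11 libraries were fitted together, with 1 term per line. Genes passed edgeR's filter with a minimum count of 10, factors were TMM, and edgeR 4.0.16 (R 4.3.3) gave quasi-likelihood tests with Benjamini-Hochberg adjustment over all 8813 genes at 0.05. Normalised CPM divide counts by the TMM-scaled library size. Chromosome arms come from GENCODE 29 on GRCh38 by gene symbol, and 71 tested genes without a place were counted off the arm.

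The members and the 44 gene lists were chosen with earlier results of these data known. Named genes were EZH2 and KMT2D, the 14 largest changes each way off the arm, 5 each way on it and 5 each way for the interaction. Up to 6 called members of each list were added (any member of lists up to 20 genes). The largest changes had a mean of at least 10 normalised CPM over the 6 libraries compared and no overlap. For the interaction, taken off the arm, that mean was over all 11 libraries, and separation in either of the 2 contrasts was enough. Some genes that this rule names are not reported here. Alternatives were RLE and upper-quartile factors, other filters, DESeq2 1.42.0, limma 3.58.1 with voom, the 6 libraries alone, a replicate block, the abundance trend or the arm removed, and each library left out. Removal of the GC and abundance trends together was added after seeing the data. On simulated counts for this comparison (8507 genes), 60% of 100 genes changed 2-fold and 22% of 100 changed 1.5-fold were recovered. There 5 unchanged genes were called. In the measured libraries 40.8% of genes off the long arm of chromosome 19 were called. Recovery with so large a share of changed genes was not tested. At these depths 3 counts correspond to 0.965 to 2.68 CPM.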

Additional observations from a re-analysis of the deposited data

Results flagged for a closer look

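The difference between lines with and without EZH2 Y646N was not the same in cells without and with KMT2D for 266 genes by the interaction test of edgeR. Values are log2 differences, the fold change without KMT2D minus that with it.

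Among genes off the long arm of chromosome 19 the difference was negative for BIN1 at -5.34, DBN1 at -5.16, PGGHG at -4.42, TMEM54 at -4.07, MFGE8 at -3.57, MT2A at -3.43, PREX1 at -3.33, S100A4 at -3.18, APOBEC3C at -3.18, IFITM2 at -2.91 and FCMR at -2.66. It was smaller in size, and again negative, for FCRL2 at -2.25, CXCR5 at -2.23, LAT2 at -2.07, IL10RA at -1.84, HK1 at -1.71, H2BC12 at -1.28, HSPB1 at -1.17, BTG2 at -0.99, TCL1A at -0.94, S1PR4 at -0.94, CD79B at -0.88, LTB at -0.81, POU2AF1 at -0.73 and NLRC5 at -0.71. VPREB1 (fitted -4.46), SLC4A11 (fitted -4.41), LGALS9 (fitted -3.93) and PRF1 (fitted -3.88) had at most 3 counts in the double mutant, and their values depend on the prior count and are no bound.

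Positive differences off the arm were those of GPER1 at 0.84, CDKN2C at 0.95, BCL6 at 0.97, PFKFB4 at 1.01, UNG at 1.14, H2AX at 1.16, SCMH1 at 1.24, MX1 at 1.27, TUBB3 at 1.31, PCGF5 at 1.37, INSR at 2.51, AQP3 at 2.74, NME4 at 3.14, FAM167A-AS1 at 3.14 and ANKS6 at 3.39. On the arm, where the median of the 305 shifted genes was 0.80, they were those of POU2F2 at 0.90, HSPBP1 at 1.14, VASP at 1.14, LIG1 at 1.32, TRPM4 at 1.92, ATF5 at 1.95 and BBC3 at 1.98. Of 51 such genes, 23 lost the call in at least 1 alternative. Calls lost without EZH2 mutant replicate 2 were those of VPREB1, FCMR, FCRL2, S100A4, IL10RA, BTG2, POU2AF1, NLRC5, LGALS9, PRF1, GPER1, CDKN2C, BCL6, PFKFB4, PCGF5, FAM167A-AS1, POU2F2, HSPBP1 and BBC3.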

How the results depend on the processing

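The count of called genes off the long arm of chromosome 19 was 2490 to 3706 over the alternatives and on that arm 218 to 264, each within 1.5 times the values reported. The interaction count of 266 moved to 482 with no filter, 478 with the GC and abundance trends removed and 142 with the arm left out. With the arm left out its own genes are not tested, and calls off the arm also came to 50 higher and 92 lower, against 56 and 131. The interaction count over all genes ranged from 147 to 309 with 1 library left out. It was lowest without EZH2 mutant replicate 2, from a line with 2 libraries whose remaining sample is then assumed to vary like the other lines. Genes at least 2-fold higher and lower numbered 222 and 1372 with upper-quartile factors, 211 and 572 with a mean of at least 10 CPM, and 436 and 696 with both trends removed, against 357 and 1104. The cause was not tested. Of 187 called genes named in the text, 160 kept the call in each alternative and 27 lost it in at least 1.

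With a replicate block, 3382 genes passed off the arm, 248 on it and 230 for the interaction, so the block moved these counts by less than 1.5 times. Of the genes named in the text, CDKN1B lost its call with the block, and BCL6, IL10RA, NLRC5, PCGF5 (1.30, edgeR adjusted p = 0.056), PRF1 and S100A4 lost the interaction call. The numbers are not stated to pair samples. Deviations of same-numbered KMT2D mutant and double mutant libraries correlated at 0.287, 0.206 and 0.0662, and each library correlated best with its own number, a hint from the data and not from the design. Depth limits genes near 1 CPM, where 3 counts are 0.965 to 2.68 CPM. Clone and genotype cannot be told apart.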

Other observations

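The families in the next paragraphs were chosen by gene symbol after their values were seen, and no test was run on them. Matching by symbol can take in related genes, such as TUBGCP genes of the gamma-tubulin complex or antisense genes of proteasome subunits. The tubulin family, taken as symbols starting TUBA, TUBB or TUBG, had 9 rises and 0 falls in 17 tested genes off the arm. Its median log2 fold change was 0.58, and 52.9% rose beside 19.4% over all genes. Mitochondrial ribosomal protein genes had 28 rises (41.2%) and 4 falls (5.88%) in 68 (median 0.30), and proteasome subunits 15 (36.6%) and 2 (4.88%) in 41 (median 0.28), beside 19.4% higher and 21.4% lower over all genes. RNA polymerase subunits had 10 rises (38.5%) and 2 falls (7.69%) in 26 (median 0.30). Rises were commoner among abundant genes. Of protein-coding genes, 5.38% rose in the lowest of the 3 abundance classes and 36.9% in the highest. That lowest class held 2 of the tubulin, 4 of the mitochondrial ribosomal protein, 9 of the proteasome and 8 of the RNA polymerase genes. Shares of rises at equal abundance were not compared for these families. The metallothionein gene MT2A, a binder of zinc, stood at 312, 244 and 307 normalised CPM in the KMT2D mutant and at 23.7, 15.1 and 16.9 in the double mutant, at log2 -3.93 (SE 0.20). MT1X, of the same family, was at log2 -3.00.

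Genes named as antisense had 77 falls (47.8%, beside 21.4% over all genes) and 10 rises in 161, with a median of -0.79, and long intergenic (LINC) genes 31 (46.3%) and 2 in 67, with a median of -0.81. Both kinds together were lower in 47.0%, 46.0% and 57.1% of 151, 63 and 14 genes of the low, middle and high abundance class. Protein-coding genes were lower in 26.6%, 20.7% and 13.9% of 2433, 2646 and 2752. Antisense counts are uncertain, because strand use in the counting is not given in the sources used here.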
